A study of Homo sapiens with 3 samples.

Results

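The miR-15 and miR-16 family was examined in 3 small RNA libraries of MV4-11 cells. The members were the hairpins hsa-mir-15a, hsa-mir-16-1, hsa-mir-15b, hsa-mir-16-2, hsa-mir-195 and hsa-mir-497, taken by name, with every mature arm listed for them. All 6 hairpins were listed among 661, and their arms made up 10 of the 783 mature miRNA names. MV4-11 is a line of human acute myeloid leukemia (AML) cells positive for the FLT3-ITD mutation, and its genotype was labelled WT. In every culture the cells carried a lentiviral CRISPR-Cas9 construct as an empty vector (EV), meaning no guide against a gene, and had been grown for 2 weeks. The 3 replicate cultures formed a single group of a single cell line, so no treated and control cells were compared, and every statement about variation below concerns these 3 cultures. The labels do not say whether the cultures were infected separately, so the spread between them may be technical.

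miRNAs are cut from a hairpin whose stem yields a 5p and a 3p arm. Usually the arm that is loaded into an Argonaute protein accumulates, and its seed near the 5′ end pairs with target mRNAs. The family is known as a brake on growth and survival in blood cells, where targets such as BCL2, which blocks apoptosis, and CCND1, a cyclin of the G1 phase, have been described. The 13q14 pair is frequently lost in chronic lymphocytic leukemia.

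The family sits in pairs at 3 loci. On the minus strand of 13q14, MIR15A (chr13:50049119-50049201) and MIR16-1 (chr13:50048973-50049061) are separated by 57 bases inside DLEU2, a long noncoding RNA, with MIR16-1 in an intron and MIR15A overlapping exons of DLEU2 transcripts. On the plus strand of 3q25, MIR15B (chr3:160404588-160404685) and MIR16-2 (chr3:160404745-160404825) are separated by 59 bases, both in introns of SMC4, which encodes a subunit of condensin. On the minus strand of 17p13, MIR195 (chr17:7017615-7017701) and MIR497 (chr17:7017911-7018022) are separated by 209 bases and overlap an exon of MIR497HG, a noncoding host transcript. These positions are from RefSeq on GRCh38.p14, and the host genes are from GENCODE on GRCh38.

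The mature sequences below, from RefSeq on GRCh38.p14, show which products of the family can be told apart in sequencing and which cannot. They are written 5′ to 3′, and capitals mark the seed, bases 2 to 8. The 5p arms come first.
miR-15a-5p (13q14): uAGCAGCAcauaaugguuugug
miR-15b-5p (3q25): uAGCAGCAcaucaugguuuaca
miR-16-5p (13q14 and 3q25): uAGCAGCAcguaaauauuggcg
miR-195-5p (17p13): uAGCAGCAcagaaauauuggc
miR-497-5p (17p13): cAGCAGCAcacugugguuugu
The 3p arms follow.
miR-15a-3p (13q14): cAGGCCAUauugugcugccuca
miR-15b-3p (3q25): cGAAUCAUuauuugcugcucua
miR-16-1-3p (13q14): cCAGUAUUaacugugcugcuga
miR-16-2-3p (3q25): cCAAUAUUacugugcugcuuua
miR-195-3p (17p13): cCAAUAUUggcugugcugcucc

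All 5 of the 5p arms carry the same seed, AGCAGCA. Counted from 1 at the 5′ end, miR-15a-5p and miR-15b-5p differ at 4 bases (A12C, G20A, U21C and G22A), none of them in the seed. Over the 21 bases of miR-195-5p, that miRNA differs from miR-16-5p at only 2 bases, G10A and U11G. The miR-16-5p sequence is identical from both copies, so a read of it does not tell 13q14 from 3q25. Seeds were less shared among the 3p arms. That of miR-16-2-3p, CAAUAUU, is also the seed of miR-195-3p, whereas miR-16-1-3p differs from miR-16-2-3p by G4A within the seed, and the seeds of miR-15a-3p and miR-15b-3p match no other listed arm of the family.

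Levels are given as deposited FPKM, which are read counts divided by feature length and library total, and as counts where precision matters. Mature arms drew on 12694823, 10991953 and 11682129 counts in replicates 1, 2 and 3. Ligation of adapters favours some small RNA sequences over others and counts include PCR copies, so levels of different miRNAs are not strict molar ratios, and the 95% Wilson intervals given below cover counting error only. Because whole cultures were sequenced, fewer cells with a miRNA and less of it per cell cannot be told apart. Replicate 1 stood apart in composition, since miR-21-5p alone held 38.5% of its mature counts against 26.8% and 20.2% in replicates 2 and 3. All 5 white blood cell markers were listed and summed to 1415547, 2451852 and 2545397 FPKM in replicates 1, 2 and 3, so the sum was lowest in replicate 1, as the family's 5p arms were. miR-155-5p gave most of the sum of replicate 1, at 957982 FPKM, whereas miR-150-5p had only 26.3, 47.6 and 85.6 FPKM. Whether the change in these markers had a part in that of the family was not tested. All 3 red blood cell markers summed to 924 to 1349 FPKM, and 7 of 10 markers of liver, muscle, epithelium and stroma were listed and summed to 24845 to 26491 FPKM. The red blood cell and other tissue markers thus stayed at a small part of the white blood cell sum in every library. This holds for the sums and not for each marker. The stromal miR-143-3p had 16964, 12529 and 11425 FPKM, above miR-150-5p but below every other white blood cell marker.

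miR-16-5p was the most abundant arm of the family. Its FPKM was 90866, 300862 and 332512 in replicates 1, 2 and 3, a mean of 241413 ± 131335 (SD, n = 3), which ranked 35 of 783 mature names. miR-15b-5p followed at 20450, 74662 and 91992 FPKM (mean 62368 ± 37322, rank 69). miR-15a-5p reached 8434, 24524 and 28882 FPKM (mean 20613 ± 10770, rank 106). For each of these guide-type arms replicate 1 was the lowest library, and the order of the 3 arms was the same in every library.

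The 5p arms of 17p13 were far lower. miR-195-5p had 142, 523 and 676 FPKM (mean 447 ± 275, rank 349), resting on 36, 115 and 158 counts. miR-497-5p had 55.1, 223 and 257 FPKM (mean 178 ± 108, rank 448), resting on 14, 49 and 60 counts. The level of miR-195-5p was 2.34- to 2.63-fold that of miR-497-5p within a library, although both lie on the same stretch of 17p13. No row was listed for miR-497-3p. Every listed mature row reached at least 10 counts in some library, so an arm without a row may have had few reads rather than none. Ranks are likewise among listed names only.

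Of the 3p arms, miR-16-2-3p was the highest, at 34011, 32969 and 35859 FPKM (mean 34280 ± 1463, rank 88). miR-15b-3p had 9593, 16454 and 23690 FPKM (mean 16579 ± 7049, rank 113), and miR-16-1-3p had 3079, 5345 and 5999 FPKM (mean 4808 ± 1532, rank 176). The remaining 3p arms were scarce. miR-195-3p had 315, 182 and 163 FPKM (mean 220 ± 82.8) on 84, 42 and 40 counts, and miR-15a-3p had 63.8, 221 and 297 FPKM (mean 194 ± 119) on 17, 51 and 73 counts.

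Ordered by mean level, the 10 arms form 9 neighbouring pairs, and 4 of these kept their order in all 3 libraries, namely miR-16-5p over miR-15b-5p, miR-16-2-3p over miR-15a-5p, miR-15b-3p over miR-16-1-3p, and miR-16-1-3p over miR-195-5p. The other 5 pairs crossed in some library. In replicate 1, for instance, miR-16-2-3p exceeded miR-15b-5p, miR-15b-3p exceeded miR-15a-5p, and miR-195-3p exceeded miR-195-5p. The lowest arms, miR-15a-3p and miR-497-5p, were 63.8 against 55.1 FPKM in replicate 1 and 221 against 223 FPKM in replicate 2.

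**Figure D1:**
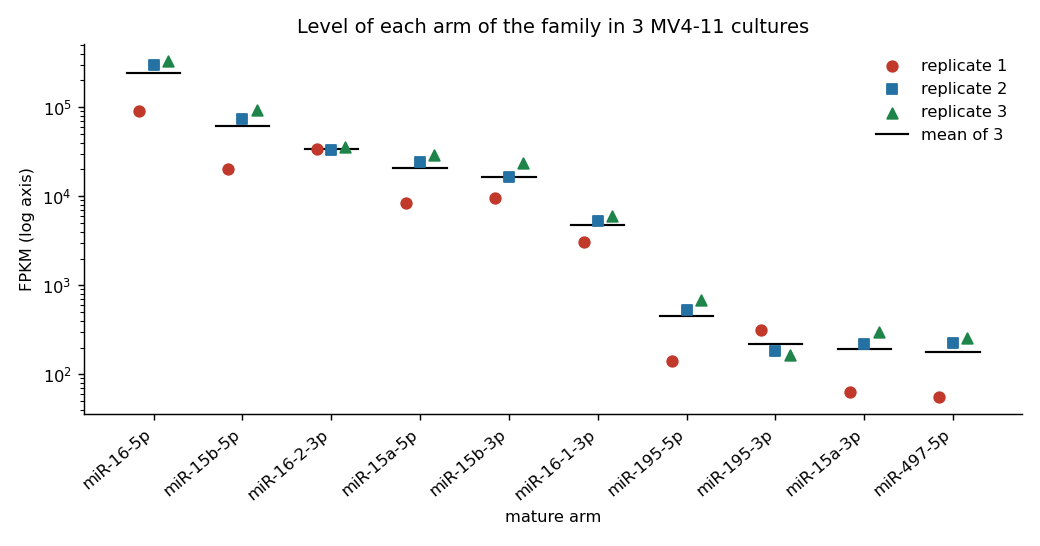
Level of the 10 listed arms of the family, in order of mean FPKM (log axis), with a point for each replicate culture and a line at the mean of 3. Replicate 1 lies lowest for every 5p arm, the 3 points of miR-16-2-3p lie between 32969 and 35859 FPKM, and those of miR-195-3p have replicate 1 on top.

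The 7 arms of miR-15a, miR-15b and miR-16 together held 0.350% (interval 0.346 to 0.353), 0.956% (0.950 to 0.962) and 1.09% (1.08 to 1.10) of mature counts in replicates 1, 2 and 3, a mean of 0.799 ± 0.395%. In RefSeq, 7 mature miRNAs carry the seed AGCAGCA. Listed among them, beside the family's own 5p arms, was miR-424-5p, made from the X chromosome, and miR-6838-5p had no row. The 6 listed arms with this seed held 0.257%, 0.857% and 0.972% of mature counts (mean 0.695 ± 0.384%).

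Within that pool of a shared seed, the division between members moved little. miR-16-5p made up 74.4%, 73.7% and 71.8% of it, miR-15b-5p 16.7%, 18.3% and 19.9%, and miR-15a-5p 6.90%, 6.01% and 6.24%. miR-424-5p held 1.85%, 1.81% and 1.87%. The 17p13 arms held little, with 0.110%, 0.122% and 0.139% for miR-195-5p and 0.0430%, 0.0520% and 0.0528% for miR-497-5p. So while the pool's share of the library differed 3.79-fold between replicates 1 and 3, its largest member stayed between 71.8% and 74.4% of it.

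How much came from each locus was asked first of the hairpins, whose counts take in both arms and the loop. In FPKM per hairpin, hsa-mir-16-2 was the highest at 20954, 48397 and 52887 (mean 40746 ± 17287, rank 42 of 661), followed by hsa-mir-16-1 at 11500, 36892 and 41171 (29854 ± 16039, rank 54). hsa-mir-15b had 7185, 20641 and 25948 (17925 ± 9672, rank 77), and hsa-mir-15a 2310, 6416 and 7496 (5407 ± 2737, rank 107). hsa-mir-195 had 110, 166 and 196 (157 ± 44.0, rank 270), and hsa-mir-497 9.91, 40.9 and 46.1 (32.3 ± 19.6, rank 413). These values are divided by hairpin length and are on a lower scale than the mature FPKM.

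Summed per locus, the 3q25 hairpins had 28140, 69038 and 78835 FPKM, the 13q14 hairpins 13810, 43308 and 48667, and the 17p13 hairpins 120, 206 and 243. The 3q25 sum was 2.04-, 1.59- and 1.62-fold the 13q14 sum (log2 ratio 0.80 ± 0.20, n = 3). The 13q14 sum was itself 115-, 209- and 200-fold the 17p13 sum. The direction was the same in 3 of 3 libraries for both ratios. The exact two-sided permutation test by sign flips over 3 libraries gave p = 0.25, the smallest value that this test can give with 3 libraries. It could therefore not pass a threshold of 0.05, and each ratio between members is given with its direction and spread.

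The locus ratio depends on how reads of miR-16-5p were divided. The deposited table lists miR-16-5p in 2 rows, of 12229 and 12000, 34976 and 34487, and 40681 and 40911 counts in replicates 1, 2 and 3. The hairpin totals tie the first row to hsa-mir-16-2 and the second to hsa-mir-16-1, because the opposite assignment would need more arm reads than a hairpin held in at least 1 library. The row of hsa-mir-16-2 took 50.5% (interval 49.8 to 51.1), 50.4% (49.98 to 50.7) and 49.9% (49.5 to 50.2) of miR-16-5p, so that every interval held 50%. Of 44 names listed in 2 rows, 28 had intervals that all held 50%. The separate rows therefore carry an equal division and give no measure of the 2 copies, and a hairpin level of hsa-mir-16-1 or hsa-mir-16-2 includes 5p reads that fit the other copy.

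Products that differ between the loci did not divide equally. miR-16-2-3p, from 3q25, took 91.7% (91.1 to 92.2), 86.1% (85.3 to 86.8) and 85.7% (85.0 to 86.3) of the reads of both miR-16 3p arms. Per length, it stood 11.0-, 6.17- and 5.98-fold above miR-16-1-3p from 13q14 (log2 ratio 2.89 ± 0.50, higher in 3 of 3 libraries, exact permutation p = 0.25). miR-15b-5p, from 3q25, took 70.8% (69.8 to 71.8), 75.3% (74.7 to 75.8) and 76.1% (75.6 to 76.6) of the reads of miR-15a-5p and miR-15b-5p. Its level was 2.42-, 3.04- and 3.19-fold that of miR-15a-5p (log2 ratio 1.52 ± 0.21, higher in 3 of 3 libraries, exact permutation p = 0.25).

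The largest gap between paralogs was in the 3p arms of miR-15, where miR-15b-3p was 148-, 74.2- and 79.4-fold miR-15a-3p, although the denominator rested on 17 to 73 counts. Every copy-specific product of 3q25 was thus above its 13q14 counterpart in each library, by factors that ranged from 2.42 to 148. Without the near-identical miR-16 pair, hsa-mir-15b and hsa-mir-15a alone gave a log2 ratio of 1.70 for 3q25 over 13q14, against 0.80 with both hairpins of each locus.

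**Figure D2:**
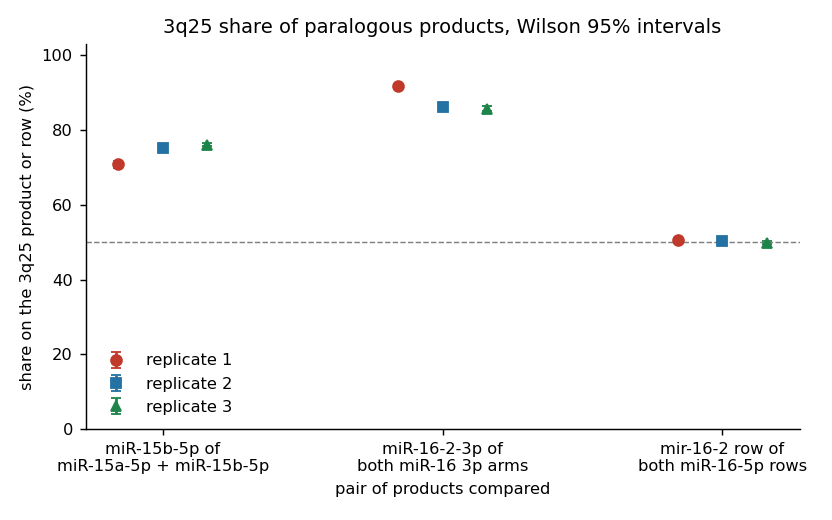
Share of counts on the 3q25 product or row for miR-15 5p arms, miR-16 3p arms and the 2 rows of miR-16-5p, in percent with Wilson 95% intervals, with a point for each replicate and a dashed line at 50%. The copy-specific products lie at 70.8% to 76.1% and 85.7% to 91.7%, whereas the miR-16-5p rows lie on the line.

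Neighbouring hairpins of a locus also differed in level. hsa-mir-16-1 was 4.98-, 5.75- and 5.49-fold hsa-mir-15a on 13q14, and hsa-mir-16-2 was 2.92-, 2.34- and 2.04-fold hsa-mir-15b on 3q25. Each miR-16 hairpin includes its row of the equally divided miR-16-5p reads, which fit both copies, so these folds depend on that division. Among the 3p arms, which only one hairpin can make, the miR-16 arm was above the miR-15 arm of the same locus in every library on both 13q14 and 3q25.

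The preference for an arm was tested over all 208 hairpin pairs with both arms above 0 in every library, with the counts of miR-16-5p set against the sum of both miR-16 3p arms. A pair was called at an adjusted p under 0.05 with at least a 2-fold ratio. Toward the 5p arm 85 pairs were called, 40.9% of those tested, and 3 of the family's 4 pairs were among them. The family leans to the 5p arm in this count, but 4 pairs are few to set beside that background.

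miR-15a was the most one-sided. Its 5p arm held 99.2%, 99.1% and 99.0% of arm counts, a log2 ratio of 5p to 3p of 6.80 (edgeR quasi-likelihood test with Benjamini-Hochberg adjustment, adjusted p = 1.32e-05), the 32nd most uneven of the 208 pairs. Its 3q25 paralog miR-15b was much more even. The 5p arm of miR-15b held 68.1%, 81.9% and 79.5%, a log2 ratio of 1.75 (edgeR, adjusted p = 0.00244), against a median absolute log2 ratio of 3.40 over all pairs. The difference between the 2 miR-15 hairpins was not tested by itself, and the 5p share of miR-15a was above that of miR-15b in every library.

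For miR-16 the 5p arm held 71.0%, 88.7% and 88.8% of the counts of all its arms, a log2 ratio of 2.43 (edgeR, adjusted p = 0.00256). With the equal division of 5p reads taken as listed, the 3p arm made up 42.5%, 17.8% and 17.7% of the hairpin counts of hsa-mir-16-2 but 6.38%, 3.45% and 3.47% of those of hsa-mir-16-1. For miR-195 the preference was not called (log2 ratio 0.80, edgeR, adjusted p = 0.324), and its libraries disagreed. Its 5p arm held 30.0% (22.5 to 38.7) in replicate 1, 73.2% (65.8 to 79.6) in replicate 2 and 79.8% (73.7 to 84.8) in replicate 3. Without replicate 1 the pair was called at a log2 ratio of 1.72.

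**Figure D3:**
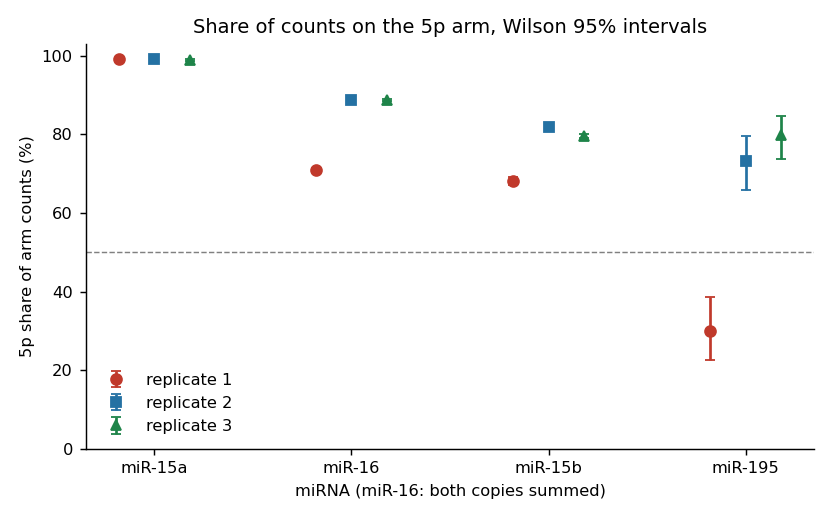
Share of arm counts on the 5p arm of miR-15a, miR-16, miR-15b and miR-195, in percent with Wilson 95% intervals, with a point for each replicate and a dashed line at 50%. Replicate 1 lies below the other replicates for miR-16, miR-15b and miR-195, and falls under the line at 30.0% for miR-195.

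**Figure D4:**
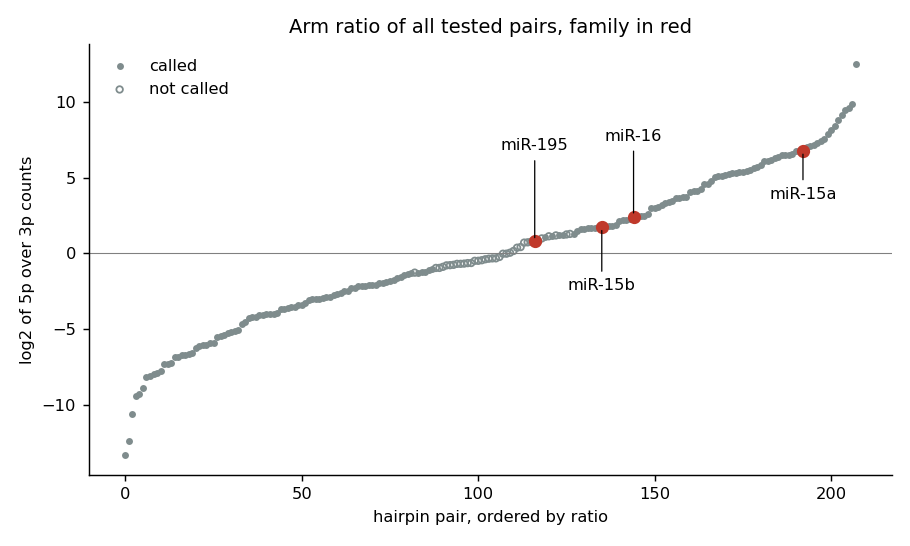
Log2 ratio of 5p to 3p counts for the 208 pairs tested with edgeR, in rising order, filled where called and open where not, with the family in red. miR-15a lies near the upper end at 6.80, and miR-16, miR-15b and miR-195 lie on the shallow middle of the curve at 2.43, 1.75 and 0.80.

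Counts of a hairpin that fell on neither listed arm were set beside the arms. hsa-mir-15b had 858, 1036 and 1107 such counts, 9.67%, 4.69% and 3.75% of the hairpin. Over hairpins with 1 row per arm and at least 100 counts, the median share was 0.0302%, 0.0431% and 0.0660%, and hsa-mir-15b ranked 3 of 139, 8 of 145 and 10 of 147. hsa-mir-15a had 144, 87 and 43 such counts, which was 5.98%, 1.50% and 0.597% of the hairpin and ranked 7, 20 and 36 among the same hairpins. The share was between 0.159% and 0.443% for hsa-mir-16-1 and hsa-mir-16-2, no such count was seen for hsa-mir-195, and 1 in all was seen for hsa-mir-497. Both miR-15 hairpins therefore carried reads outside their arms in every library, at a share highest in replicate 1. The table does not show where on the hairpin these reads lay.

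Replicate 1 differed from both other cultures in most arms of the family, though not in miR-16-2-3p. In FPKM, 6 of 10 arms were at least 2-fold lower in replicate 1 than in each of the others, as were 23% of all 783 mature names. These 6 were the 5 arms with the shared seed and miR-15a-3p. Of the hairpins 5 of 6 met the same rule, hsa-mir-195 being the exception, beside 17.2% of 661. Replicates 2 and 3 were closer to each other, with a median log2 ratio of 0.22 for the family and 0.09 for all names.

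The whole table moved too, by a median log2 ratio of 0.48 for replicate 2 to replicate 1 and 0.57 for replicate 3 to replicate 1. The medians of the family's 10 arms were 1.63 and 1.82, and those of its 5p arms 1.87 and 2.17. In folds, miR-16-5p was 3.31 and 3.66 times its replicate 1 level, miR-15a-5p 2.91 and 3.42 times, and miR-15b-5p 3.65 and 4.50 times. Counts divided by DESeq2 size factors, which centre the table, gave smaller folds of 2.09 to 3.23 for the 5p arms, and the same number of arms, 6 of 10, met the 2-fold rule, beside 94 of all 783 names. Of the 6 arms with at least 100 counts in every library, 3 met it, beside 20.9% of 330 such names.

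Apart from miR-15a-3p, the 3p arms differed less from replicate 1 than the 5p arms of their own hairpins, or in the opposite direction. miR-16-2-3p was 0.969 and 1.05 times its replicate 1 level in FPKM, and its coefficient of variation (CV, the SD over the mean) of 4.27% was among the smallest in the table, with 21 of 783 names below it. After the size factors it was 0.698 and 0.714 times, so it was level with or below replicate 1 depending on the scaling. miR-195-3p was 0.577 and 0.517 times in FPKM and 0.416 and 0.350 times after the size factors, the opposite direction to its partner miR-195-5p at 3.69 and 4.77 times in FPKM. miR-16-1-3p, at 1.74 and 1.95 times, and miR-15b-3p, at 1.72 and 2.47 times, lay between, and miR-15a-3p, at 3.46 and 4.67 times, moved as its 5p arm did.

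The arm ratios carry the same contrast without any scaling between libraries, since both arms are read from the same library. In replicate 1 the Wilson interval of the 5p share lay below those of both other replicates for miR-15b, miR-16 and miR-195, 3 of 4 pairs, as it did for 22.1% of the 208 pairs. By size, the 5p to 3p ratio of replicate 1 was at least 2-fold below both others for miR-16 and miR-195, 2 of 4 pairs, and for 21.2% of the 208. The log2 ratio of miR-16 in replicate 1, less that in replicates 2 and 3, was -1.68 and -1.70, and the median over all pairs was -0.04 and -0.02. For miR-15b these differences were -1.09 and -0.87, and for miR-15a they were 0.25 and 0.45, the other direction. The share of miR-21-5p, the family's 5p levels and the arm ratios of miR-15b, miR-16 and miR-195 set replicate 1 apart. The part of library preparation or culture in this was not tested.

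**Figure D5:**
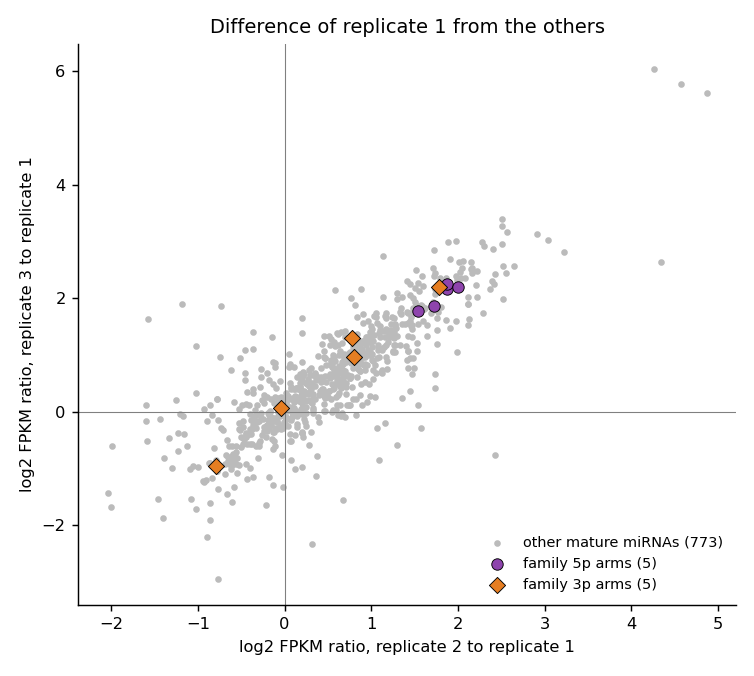
Log2 FPKM ratio of replicate 2 to replicate 1 (horizontal) and of replicate 3 to replicate 1 (vertical) for the 783 mature names, with the family's 5p arms as circles and its 3p arms as diamonds. The 5p arms lie together toward the upper right, whereas miR-16-2-3p lies at the origin and miR-195-3p in the lower left.

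The CV of FPKM over the 3 libraries was 52.2% to 61.6% for the 5p arms and 4.27% to 61.4% for the 3p arms. Its median over the 10 arms was 53.3%, beside 32.5% over all names. Without replicate 1 the family median fell to 10.8%, so most of the family's spread between libraries rested on that culture. With counts divided by DESeq2 size factors it was 45.5%. No median over all names is given for these 2 settings, so neither value can be called particular to the family.

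Outside the family, the miRNAs with the most similar pattern to miR-16-5p were taken by the Euclidean distance between centred log2(FPKM + 1) values over the 3 libraries, among 324 names with at least 100 counts in every library. The nearest 5 were miR-33a-3p, miR-424-5p, miR-550a-3p, miR-223-3p and miR-142-3p, at distances of 0.00147 to 0.0924. miR-424-5p, which carries the family's seed, had 2258, 7385 and 8640 FPKM. Within the family, miR-15a-5p lay at 0.133 and miR-15b-5p at 0.211, whereas miR-16-2-3p lay at 1.46 and miR-195-3p at 2.19. A pattern over 3 libraries is set almost wholly by how far replicate 1 falls below the others, so these distances describe that and no more.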

How the data were processed

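Total RNA of 3 MV4-11 cultures was isolated on miRNeasy columns, and small RNA libraries made with NEB reagents were sequenced on an Illumina HiSeq instrument. The authors counted aligned reads over miRBase mature arms and hairpins. The deposited tables give whole read counts and the FPKM that the authors derived from them. The submitters' processing notes name Novoalign 2.08.03 and the builds hg19 and mm10 without saying which step each served, and trimming is not given in the sources used here. The deposited tables carry no coordinates. The feature length behind the FPKM was 1 base under the RefSeq length for 16 of 16 members checked.

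Rows of a repeated name were summed (851 rows, 783 names). Mature totals were 10991953 to 12694823 counts and hairpin totals 11022587 to 12722997. RefSeq sequences matched 679 of the 783 names. Ratios between members used log2(FPKM + 1) with an exact two-sided sign-flip permutation test. Arm preference was tested on counts with edgeR 4.0.16 (quasi-likelihood, library as a term, Benjamini-Hochberg adjustment over 208 pairs). A pair was called at an adjusted p under 0.05 and an absolute log2 ratio of at least 1. limma 3.58.1 on FPKM and DESeq2 1.42.0 on counts were alternatives in R 4.3.3, and other steps used Python 3.11.15 with scipy 1.17.1. The fits were tested on simulated data. In these, a library effect was shared by both arms of a pair, so no arm shift particular to a library, as seen in replicate 1, was built in. Other alternatives were the pseudocount, count filters, scaling, the treatment of repeated names and leaving out each replicate.

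The members and lists were chosen with earlier results of these data known. Named beside the members were listed arms with the seed of miR-16-5p, the relatives miR-503, miR-103a and miR-107, and the 5 miRNAs nearest to miR-16-5p. The muscle marker fixed as miR-1-3p is named miR-1 in the deposited table and was matched after the table was seen.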

Additional observations from a re-analysis of the deposited data

How the results depend on the processing

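Of 86 alternative values, 81 kept their direction and side of the threshold or moved by less than the spread, and none reversed. Many of these 81 could hardly have done otherwise. A share of mature counts has no test and cannot be negative. The permutation test of ratios between members cannot pass its threshold with 3 libraries or fewer, so only their direction could change. Scaling between libraries nearly cancels in a 5p to 3p ratio within a library, and 172 pairs were called with either alternative scaling. The number 81 is therefore no measure of robustness. The median CV of the family's arms ranged from 10.8% to 79.1% when each replicate was left out, and was 10.8% without replicate 1. miR-195, not called in the full set, was called without replicate 1 (log2 ratio 1.72). Arms at least 2-fold lower in replicate 1 numbered 6, also with size factors, and 3 among names with at least 100 counts, both settings chosen after seeing the data. Pairs called for an arm numbered 172 with edgeR, 170 with limma and 174 with DESeq2, and 136 to 181 over all settings. The separate rows of miR-16-5p gave a log2 ratio of 0.01 for 3q25 over 13q14, against 2.89 for the 3p arms. That setting is counted among the 81 by the sign of its mean alone. Its direction was not kept in replicate 3, where the row of hsa-mir-16-2 held 49.9% of miR-16-5p. With 1 row per repeated name the family held 0.607% and the shared seed 0.493% of mature counts. Left out in turn, the replicates gave log2 ratios of 1.44 to 1.64 for miR-15b-5p over miR-15a-5p, 2.60 to 3.04 for miR-16-2-3p over miR-16-1-3p and 0.68 to 0.86 for 3q25 over 13q14. No paired analysis was possible because there was a single group, with no samples to pair across groups, while ratios and arm tests were taken within libraries. Depth limits miR-497-5p, miR-195 and miR-15a-3p, which had under 100 counts in at least 1 library.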

Other observations

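The relatives of the family at the sequence level were listed as well. miR-103a-3p and miR-107, made from PANK genes, contain the family's seed letters shifted by 1 base, so that their own seed is GCAGCAU. miR-103a-3p had 429822, 861154 and 1005440 FPKM in replicates 1, 2 and 3 and miR-107 had 21483, 71930 and 95182 FPKM, so miR-103a-3p was above miR-16-5p in every library. miR-503-5p, whose bases 2 to 7 equal those of miR-16-5p and whose seed ends in a different base (AGCAGCG), had 5617, 11105 and 13246 FPKM. All 3 relatives were lowest in replicate 1, the direction in which the whole table moved. Over all 783 names the median log2 ratio to replicate 1 was 0.48 for replicate 2 and 0.57 for replicate 3. The folds of replicates 2 and 3 over replicate 1 were 3.35 and 4.43 for miR-107, near those of miR-15b-5p at 3.65 and 4.50, and 2.00 and 2.34 for miR-103a-3p.

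The 5p arm of miR-424 held 20.5%, 43.9% and 48.5% of arm counts, under 50% in every library and lowest in replicate 1, and no preference was called (log2 ratio -0.78, edgeR quasi-likelihood test, adjusted p = 0.147). miR-503, from the same X-linked cluster, was called toward the 5p arm with a log2 ratio of 5.32 (edgeR quasi-likelihood test, adjusted p = 9.96e-05).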
